A study of Mus musculus with 7 samples.

Results

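The 43 genes described here encode the machinery that docks vesicles at a membrane and fuses them with it, and they were taken by symbol from a list of vesicle proteins, SNARE proteins, and docking and release factors. All 43 were found among the 49315 gene identifiers of the count data. They were sorted by textbook knowledge, but with earlier results of these data known. The classes were 25 neuron-typical genes, best known from the presynaptic terminal, 12 ubiquitous SNAREs, which most cells use, and 6 widely expressed partners of the SNAREs.

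SNARE proteins sit on vesicles and on target membranes and zip together into a bundle that pulls both membranes into one. At synapses the bundle is formed by synaptobrevin on the vesicle and by SNAP25 and syntaxin 1 on the plasma membrane, and a dedicated set of synapsins, Rab3 GTPases, active zone scaffolds, priming factors and complexins makes release fast and dependent on calcium. Oligodendrocytes use the widely expressed SNAREs, in particular VAMP3 and VAMP7, to deliver myelin proteins to the cell surface, and their precursors receive synaptic input from neurons.

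RNA-seq libraries had been made from 7 primary oligodendroglial cultures of the mouse, 1 for each culture, of which 4 were wildtype controls and 3 carried the Klf13 knockout. The cells came from the brains of newborn pups of both sexes, were shaken off mixed glial cultures, depleted of microglia and differentiated in SATO medium for 6 days. According to the study the deletion of Klf13 is constitutive and affects the whole animal, so that neurons or astrocytes carried over from a knockout brain lack it as well. Strain, litter and pooling of pups are not given in the sources used here, and the p-values below measure the spread between these cultures.

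The libraries held 24507471 to 59596479 counts on genes. Klf13, the targeted gene, had 10670 to 12000 normalized counts in control cultures and 801.6 to 961.2 in knockout cultures (log2 fold change -3.69, edgeR adjusted p = 6.77e-06). Normalized counts are counts scaled to a common library size. Of 10 oligodendrocyte markers, all detected, 7 were significantly lower in the knockout (edgeR's quasi-likelihood test, adjusted p up to 0.05), beside 12.2% of all genes tested, and their summed level was 4706 to 5550 CPM (counts scaled to library size) per kilobase of exon in control cultures and 1802 to 2045 in knockout cultures. Markers of other cells were present as well. The 16 neuron markers, none of them at 0, summed to 189.7 to 260.2 in control cultures and 312.3 to 440.9 in knockout cultures, with 8 of 16 significantly higher, beside 11.6% of all genes tested. The 10 astrocyte markers summed to 518.4 to 708.7 and 1001 to 1183, with 9 of 10 significantly higher. The 8 OPC markers summed to 526.5 to 590.1 and 640.2 to 680.2, with 3 of 8 significantly higher. The 9 fibroblast and mural cell markers summed to 103.1, 96.7, 280.0 and 222.7 in control replicates 1 to 4 and to 50.2 to 98.5 in knockout cultures, with 1 of 9 significantly lower and a median log2 fold change of -1.84. The 10 microglia markers summed to 1078 in control replicate 3, to 233.8 to 266.1 in the other controls and to 243.9 to 483.8 in knockout cultures. These counts moved with single libraries. Without knockout replicate 2, 4 neuron, 2 astrocyte and 1 OPC markers were significantly higher, without knockout replicate 1 they were 5, 6 and 1, and without knockout replicate 3 they were 6, 5 and 2. With the replicate block 9 neuron markers were higher and 2 lower. The fibroblast and mural cell markers that were lower numbered 6 in DESeq2 or without control replicate 2, 5 with the block, and 0 in limma voom or without control replicate 1, 3 or 4 or knockout replicate 1 or 2. With any 1 library left out, 7 oligodendrocyte markers were lower.

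The promoters of 36 of the 43 genes were available from RefSeq on GRCm38.p6, from 250 bases before to 50 bases after the transcription start. They are shown for 6 genes that the results below turn on, with matches to 4 short motifs in capitals. The motifs, searched on both strands, were the GC box GGGCGG and the box CACCC, both bound by Krüppel-like and Sp factors, and the left part TTCAGCACC and the right part GGACAGCGC of RE1, the element bound by the neuronal gene repressor REST. Matches to CACCC and to the GC box can overlap, as they do in Synpr. Unc13a is shown because it held both parts of RE1, Syn1 because it held the left one, Synpr and Syp as genes that rose most among vesicle membrane proteins, and Sv2a and Stxbp3 as genes that fell.
Unc13a, chr8:71671708-71672007, minus strand: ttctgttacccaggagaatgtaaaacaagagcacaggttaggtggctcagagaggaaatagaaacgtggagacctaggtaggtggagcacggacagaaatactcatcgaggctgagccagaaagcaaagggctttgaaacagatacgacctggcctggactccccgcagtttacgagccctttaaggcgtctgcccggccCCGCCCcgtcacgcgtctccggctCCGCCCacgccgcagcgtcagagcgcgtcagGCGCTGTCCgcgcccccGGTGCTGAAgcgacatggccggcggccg
Syn1, chrX:20920869-20921168, minus strand: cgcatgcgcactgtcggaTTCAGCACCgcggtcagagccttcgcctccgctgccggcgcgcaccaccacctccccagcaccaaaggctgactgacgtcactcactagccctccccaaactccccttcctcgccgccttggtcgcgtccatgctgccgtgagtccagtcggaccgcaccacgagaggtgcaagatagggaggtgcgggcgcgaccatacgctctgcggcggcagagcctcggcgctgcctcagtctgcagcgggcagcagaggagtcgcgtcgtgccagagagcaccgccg
Synpr, chr14:13284530-13284829, plus strand: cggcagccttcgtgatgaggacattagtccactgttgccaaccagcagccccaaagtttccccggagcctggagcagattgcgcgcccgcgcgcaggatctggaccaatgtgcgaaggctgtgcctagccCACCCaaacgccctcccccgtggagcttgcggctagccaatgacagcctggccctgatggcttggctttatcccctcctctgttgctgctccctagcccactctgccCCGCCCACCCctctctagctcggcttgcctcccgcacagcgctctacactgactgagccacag
Syp, chrX:7638330-7638629, plus strand: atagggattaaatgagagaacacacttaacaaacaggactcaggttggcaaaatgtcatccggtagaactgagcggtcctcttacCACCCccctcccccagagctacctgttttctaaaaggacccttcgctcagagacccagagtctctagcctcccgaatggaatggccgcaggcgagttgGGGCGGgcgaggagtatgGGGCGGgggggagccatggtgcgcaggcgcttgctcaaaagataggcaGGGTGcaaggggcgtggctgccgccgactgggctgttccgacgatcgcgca
Sv2a, chr3:96180977-96181276, plus strand: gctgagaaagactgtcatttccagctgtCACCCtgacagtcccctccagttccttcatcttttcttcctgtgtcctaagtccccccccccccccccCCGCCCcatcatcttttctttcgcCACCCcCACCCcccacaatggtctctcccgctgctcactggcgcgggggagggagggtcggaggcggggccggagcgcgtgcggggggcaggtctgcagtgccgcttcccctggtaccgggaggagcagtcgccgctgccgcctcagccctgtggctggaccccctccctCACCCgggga
Stxbp3, chr3:108840453-108840752, minus strand: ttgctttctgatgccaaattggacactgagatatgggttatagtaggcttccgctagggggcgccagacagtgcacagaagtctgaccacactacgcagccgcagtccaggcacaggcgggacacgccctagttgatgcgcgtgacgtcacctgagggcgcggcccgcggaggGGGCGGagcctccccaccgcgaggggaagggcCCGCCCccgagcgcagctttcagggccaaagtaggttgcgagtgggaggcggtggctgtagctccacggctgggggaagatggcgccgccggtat

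In Unc13a both RE1 parts lay on the opposite strand, with 8 bases between them, and the left part began 22 bases after the start site. In Syn1 the left part lay on the strand of the gene, 232 bases before the start. A promoter with the left part was found for 0.505% of the tested genes and one with the right part for 0.781%. Among the 20 neuron-typical genes with a promoter, 2 held the left part and 1 the right part, and among the 10 ubiquitous SNAREs with a promoter neither part was found. The GC box was present in 16 of 20 neuron-typical and 6 of 10 ubiquitous genes, beside 65.5% of tested genes, and CACCC in 14 of 20 and 5 of 10, beside 67.4%. These matches describe letters in a window and are no measure of binding. Snap25, Vamp2, Vamp3, Vamp7, Syn3, Rims2 and Doc2b had no promoter in the table.

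Levels per exon length, in CPM per kilobase of exon over all libraries, were led by ubiquitous SNAREs. Stx7, a syntaxin of endosomes, was highest at 66.8, followed by the vesicle SNARE Vamp3 at 52.2, its neuron-typical relative Vamp2 at 44.4, the endosomal Stx12 at 41.2 and the vesicle GTPase Rab3a at 39.6. Sv2a, a vesicle glycoprotein, followed at 25.7. Neuron-typical genes therefore took 3 of the 6 highest places, and they also took the 7 lowest. The lowest level was that of Sv2b at 0.0153, followed by Unc13c at 0.0478, Doc2b at 0.174 and Sv2c at 0.548. Neighbours in this order often lay within each other's spread. In control cultures, Vamp2 at 39.1 ± 3.09 (SD, n = 4) and Rab3a at 39.1 ± 2.11 lay within each other's SD, while Stx7 at 70.3 ± 3.86 lay above Vamp3 at 58.7 ± 3.55 by more than either SD. In the knockouts Vamp2 reached 51.5 ± 6.54 (SD, n = 3) and Vamp3 43.5 ± 3.67, so that their order was the reverse of that in control cultures.

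**Figure D1:**
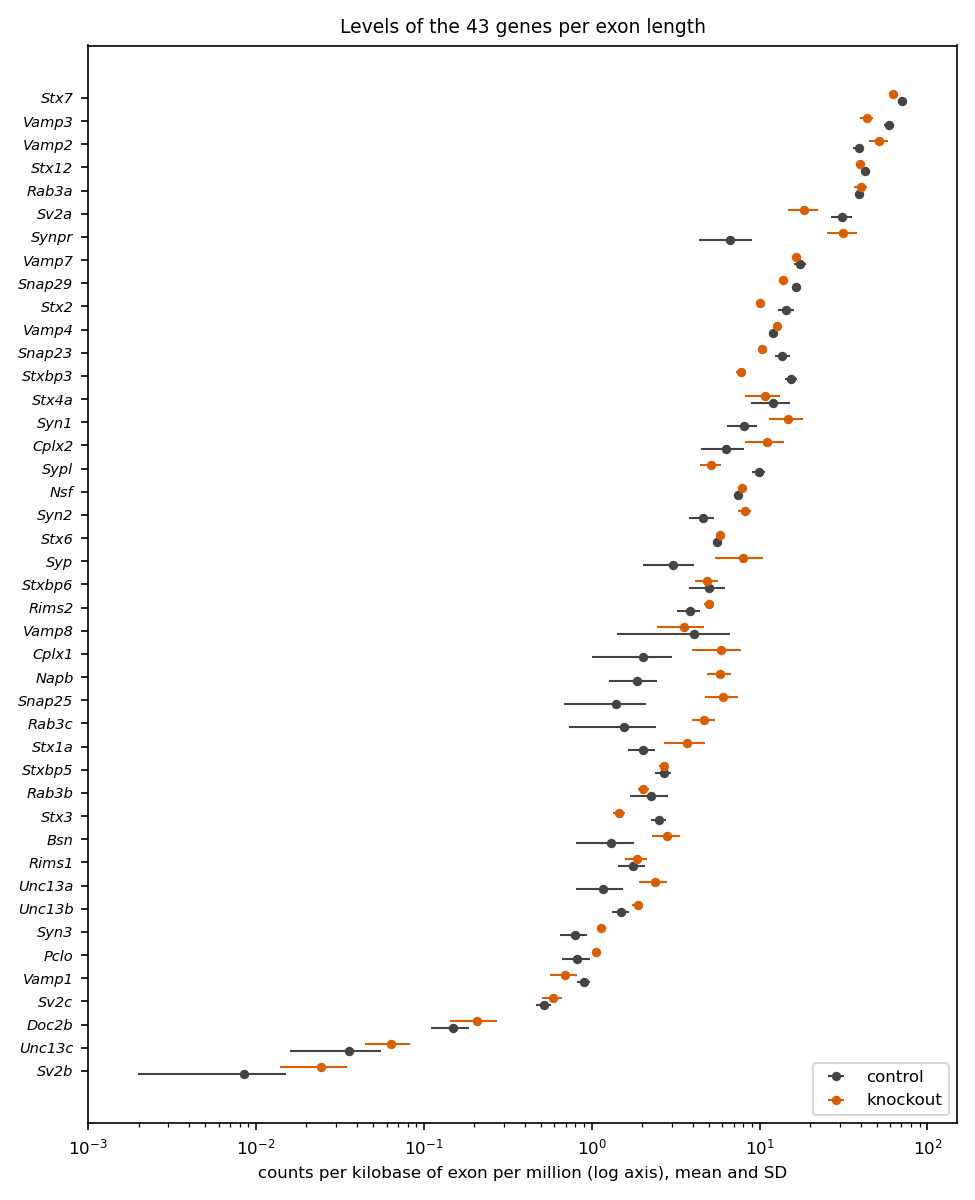
Level of each of the 43 genes in CPM per kilobase of exon on a log axis, with the mean and SD of the 4 control and 3 knockout libraries. Genes are ordered by their level over all libraries, from Stx7 at 66.8 to Sv2b at 0.0153, and Synpr moves from 6.66 in control cultures to 31.5 in knockout cultures.

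In knockout against control cultures, 13 of the 43 genes were higher, beside 11.6% of all genes tested, 8 were lower, beside 12.2%, 21 did not pass the test and 1 was not tested. Among the neuron-typical genes, Synpr, Snap25, Napb, Rab3c, Cplx1, Syp, Bsn and Unc13a rose at least 2.02-fold, and Stx1a, Syn1, Syn2, Syn3 and Vamp2 rose by less, whereas only Sv2a of this class fell. Among the ubiquitous SNAREs, Stx3, Stx2, Vamp3, Snap23 and Snap29 fell modestly and none rose. Stxbp3 and Sypl, of the widely expressed partners, fell, with log2 fold changes of -0.999 and -0.94. In a bulk culture, fewer cells of a type and less RNA per cell cannot be told apart.

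In numbers, 42 of the 43 genes had enough counts to be tested. A gene passed if edgeR's quasi-likelihood test, adjusted over all 18352 genes tested, gave it an adjusted p no higher than 0.05, and was called when its absolute log2 fold change was also at least 1. Of the 24 neuron-typical genes tested, 13 passed as higher, beside 11.6% of all genes tested, and 1 as lower, beside 12.2%. Called higher were 8 of the 24, beside 3.97% of all genes, and called lower were 0, beside 3.08%. With the replicate number as a block, 6 neuron-typical genes were called higher, and among all genes 563 were, against 729 without the block. Of the 12 ubiquitous SNAREs, 5 passed as lower and 0 as higher in edgeR's test, and 0 were higher at an unadjusted p of at most 0.05, in DESeq2's Wald test or in limma voom. Of the 6 partners, 2 passed as lower and 0 as higher in edgeR's test, with 1 higher at an unadjusted p of at most 0.05, 1 in DESeq2 and 0 in limma voom. No member was called lower by edgeR or limma voom, and 1 was by DESeq2. The median log2 fold change was 0.83 for the neuron-typical genes, -0.18 for the ubiquitous SNAREs and -0.0078 for the partners, beside -0.0037 for all genes tested. Groups without overlap were found for 16 of 24 neuron-typical genes as higher, beside 18.3% of all genes, and for 7 of 12 ubiquitous SNAREs as lower, beside 18%. Without knockout replicate 2, 4 neuron-typical genes passed as higher and 3 were called, without knockout replicate 1 the numbers were 8 and 5, and without control replicate 3 they were 9 and 4. Among all genes, 2122 passed as higher and 729 were called higher with every library. These numbers were 850 and 335 without knockout replicate 2, 1209 and 547 without knockout replicate 1, and 1754 and 572 without control replicate 3. The ubiquitous SNAREs that passed as lower were 3 without knockout replicate 2, where 1317 of all genes passed as lower, against 2246 with every library.

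**Figure D2:**
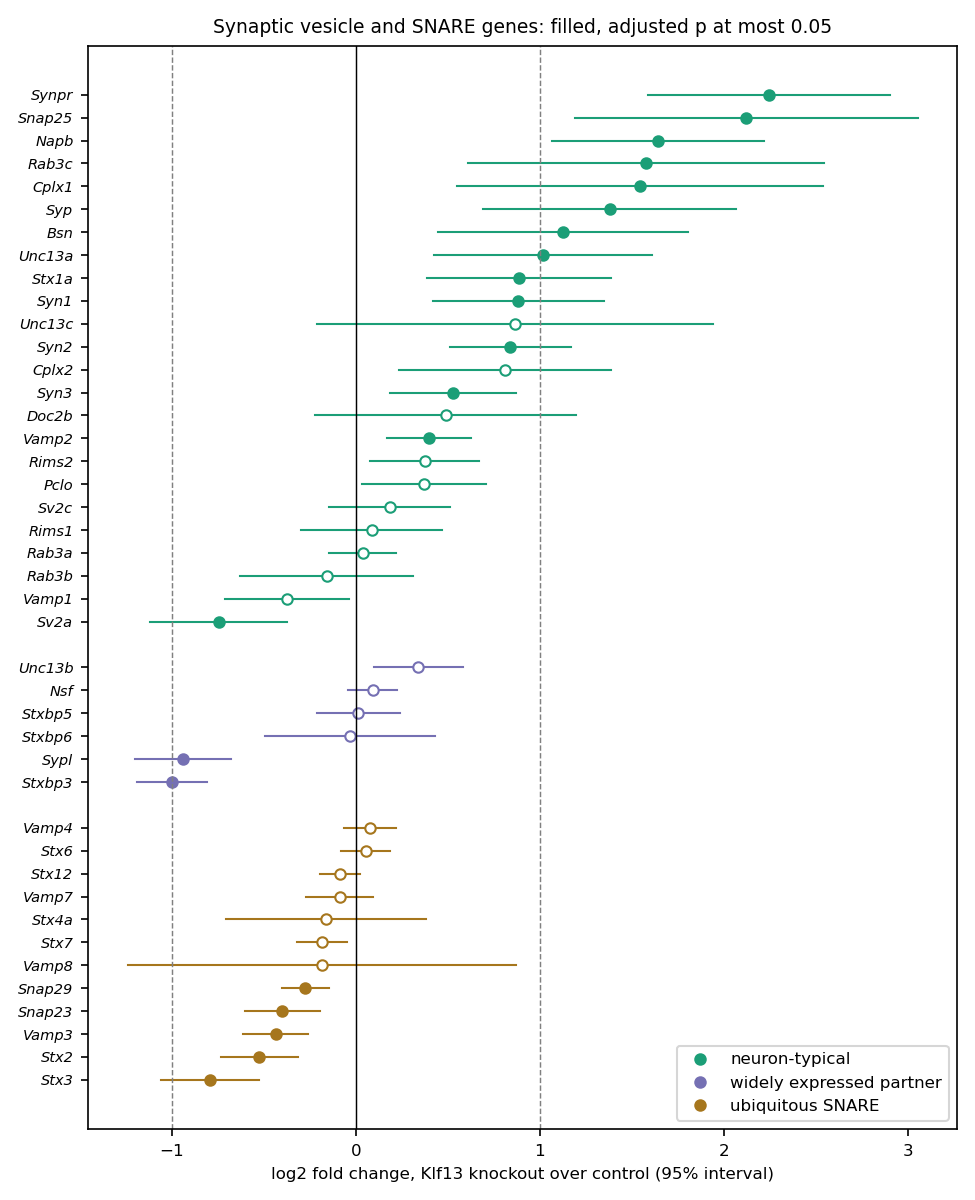
Log2 fold change of the 42 tested genes, knockout over control, with 95% intervals from edgeR's quasi-likelihood fit, grouped by class. Filled points passed the threshold of 0.05, and dashed lines mark a log2 fold change of 1 in either direction, with neuron-typical genes from -0.74 to 2.24 and ubiquitous SNAREs from -0.79 to 0.08.

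The rise of the neuron-typical genes ran beside the neuron markers, whose summed level was higher in every knockout library than in any control. The summed level of the 25 neuron-typical genes was 144.2 to 183.1 in control cultures and 200.4 to 268.2 in knockout cultures, that of the 12 ubiquitous SNAREs 255.4 to 285.7 and 225.5 to 235, and that of the 6 partners 40.5 to 43.2 and 29.3 to 31.4. Control replicate 4 was lowest and knockout replicate 2 highest for both the neuron and the astrocyte markers, and the same held for all 8 called genes. Control replicate 3 lay above control replicate 1 for the neuron markers (229.5 against 211.1) and the astrocyte markers (665.5 against 661.4), but below it for all 8 called genes. Of the 16 neuron markers, 12 had a positive log2 fold change and 4 a negative one. Every knockout lay above every control for the astrocyte markers as well. Control replicates 3 and 4, the 2 lowest controls for all 8 called genes, were the 2 highest libraries for the fibroblast and mural cell markers. The part of carried-over neurons, astrocytes, fibroblasts, mural cells, microglia or OPCs in these results was not tested.

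Among SNAREs of the cell surface, Snap25, the neuronal SNARE of the plasma membrane, had 526.6, 659.6, 275.5 and 203.1 normalized counts in control replicates 1 to 4 and 1641, 2263 and 1522 in knockout replicates 1 to 3. Every knockout lay above every control, and control replicates 3 and 4 were lowest (log2 fold change 2.12, SE 0.40, edgeR adjusted p = 0.00998). Stx1a, its syntaxin partner at the synapse, had 259.2, 287.6, 202.3 and 198.4 normalized counts in control cultures and 335.8, 566.4 and 405.9 in knockout cultures. The groups were apart with knockout replicate 2 highest (0.89, SE 0.21, edgeR adjusted p = 0.0240), and the pass was lost without control replicate 4 (adjusted p = 0.0515) or knockout replicate 2 (0.0814).

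The 5 ubiquitous SNAREs sorted to the cell surface included Snap29, which acts on several compartments. Of these 5, 4 passed as lower, beside 12.2% of all genes tested, and 1 did not pass. Snap23, the relative of Snap25 in most cells, had 2391, 2324, 2856 and 2762 normalized counts in control cultures and 1986, 1875 and 2023 in knockout cultures. All knockouts lay below all controls (log2 fold change -0.40, SE 0.088, edgeR adjusted p = 0.0172), but the pass was lost without control replicate 4 or any 1 knockout, with adjusted p up to 0.0759. Snap29, a SNARE without a membrane anchor that acts on several compartments, had 2590, 2458, 2542 and 2394 in control cultures and 2161, 2007 and 2031 in knockout cultures. The knockouts were again lower without overlap (-0.27, SE 0.055, edgeR adjusted p = 0.0128, and 0.0531 without knockout replicate 2). Stx2, a plasma membrane syntaxin, had 2598, 2803, 3331 and 2933 in control cultures and 2080, 1920 and 2087 in knockout cultures, which also did not overlap (-0.52, SE 0.090, edgeR adjusted p = 0.00719). Stx3, a syntaxin of apical and ribbon synapse membranes, showed the largest fall of the ubiquitous SNAREs, from 545.5 to 706.4 normalized counts in control cultures to 345.7 to 398.3 in knockout cultures (-0.79, SE 0.11, edgeR adjusted p = 0.00406). Stx4a, the plasma membrane syntaxin of regulated secretion in many cells, had 915.4, 1451, 1595 and 1033 in control cultures and 931.6, 1414 and 1003 in knockout cultures. Its groups overlapped widely (-0.16, 95% interval -0.70 to 0.38, edgeR adjusted p = 0.674).

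Of the 6 vesicle SNAREs, 1 passed as higher, beside 11.6% of all genes tested, 1 as lower, beside 12.2%, and 4 did not pass. Vamp2, the synaptobrevin of synaptic vesicles, had 6723, 7156, 5941 and 6355 normalized counts in control cultures and 8076, 9882 and 7902 in knockout cultures. The groups were apart (log2 fold change 0.40, SE 0.099, edgeR adjusted p = 0.0261), with knockout replicate 2 highest and the pass lost without it (adjusted p = 0.0741). Vamp3, the cellubrevin of recycling endosomes, had 7211, 7085, 7453 and 8099 in control cultures and 5965, 5036 and 5558 in knockout cultures. Here the knockouts were lower without overlap (-0.44, SE 0.077, edgeR adjusted p = 0.00800) and the pass held with each library left out. Vamp1, a second synaptobrevin, did not pass at -0.37 (edgeR adjusted p = 0.103), and neither did Vamp4 of the trans-Golgi network at 0.08, Vamp7 of late endosomes and lysosomes at -0.09 or Vamp8 of endosomes at -0.18. Vamp7 lies on the scaffold GL456233.1 of the annotation. Vamp8 had 242.3 to 310.8 normalized counts in control replicates 1, 2 and 4 but 811.5 in control replicate 3, and its log2 fold change without that library was 0.38.

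Of the 3 endosomal syntaxins, 0 passed in edgeR's test, DESeq2's Wald test or limma voom, and 1 was lower at an unadjusted p of at most 0.05. Stx7 had 7356, 7389, 8200 and 7982 normalized counts in control cultures and 6882, 6842 and 6715 in knockout cultures. The knockouts were lower without overlap, but the difference was small (log2 fold change -0.18, SE 0.057, edgeR adjusted p = 0.0561). Stx12, of recycling endosomes, had 5726, 5982, 6049 and 5912 in control cultures and 5673, 5450 and 5606 in knockout cultures. Its groups were apart by a narrow gap (-0.09, 95% interval -0.19 to 0.022, edgeR adjusted p = 0.227). Stx6, of the trans-Golgi network, was at 0.05 with an interval of -0.077 to 0.18.

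Of the 3 syntaxin-binding proteins, Stxbp3, the Munc18 relative that works with syntaxin 4 outside synapses, was the clearest. It had 3353, 3457, 3709 and 4030 normalized counts in control cultures and 1825, 1703 and 1932 in knockout cultures. All 3 knockouts lay far below all controls (log2 fold change -0.999, SE 0.082, edgeR adjusted p = 0.000331), just short of the limit of a called gene. It was called lower by DESeq2's Wald test (-1.01) and without control replicate 1, control replicate 2 or knockout replicate 3. Stxbp6, amisyn, had 1149, 1378, 963.6 and 778.8 in control cultures and 911.7, 1224 and 997.7 in knockout cultures, with wide overlap (-0.029, edgeR adjusted p = 0.936). Stxbp5, tomosyn, was at 0.013 (edgeR adjusted p = 0.940), and the signs of both changed between settings.

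Among vesicle membrane proteins, Synpr, synaptoporin of the synaptophysin family, showed the largest rise of all 42 tested genes. It had 2891, 3404, 1982 and 1527 normalized counts in control cultures and 11954, 13730 and 9143 in knockout cultures. The lowest knockout lay well above the highest control (log2 fold change 2.24, SE 0.28, 4.74-fold, edgeR adjusted p = 0.00244). Syp, synaptophysin, had 715.6, 1026, 585.2 and 481.1 in control cultures and 1616, 2486 and 1375 in knockout cultures. Its groups were apart with knockout replicate 2 highest (1.38, SE 0.29, edgeR adjusted p = 0.0157), and the pass was lost without that library (adjusted p = 0.0582). Of the exon bases of Syp, 16.8% lie opposite Gm14703, which had 45 counts in all libraries together.

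Other members of this group fell. Sypl, the relative of synaptophysin in non-neuronal cells, had 3034, 3201, 3683 and 3158 normalized counts in control cultures and 1699, 1469 and 1953 in knockout cultures. The knockouts were lower without overlap (log2 fold change -0.94, SE 0.11, edgeR adjusted p = 0.00186), and with knockout replicate 3 left out the value was -1.04 and the gene was called. Sv2a had 5883, 7411, 6655 and 5355 in control cultures and 3407, 4666 and 3244 in knockout cultures. It was the 1 neuron-typical gene lower in every knockout than in any control (-0.74, SE 0.16, edgeR adjusted p = 0.0158), and the pass was lost without knockout replicate 1 (adjusted p = 0.0583). Its relative Sv2c did not pass, at 187.2 to 233.3 and 209.4 to 274.3 (0.18, edgeR adjusted p = 0.398). Sv2b was not tested, with raw counts of 0, 4, 5 and 3 in control cultures and 3, 19 and 11 in knockout cultures. The controls and knockout replicate 1 lay near the 3 counts that a count of 0 allows.

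All 3 synapsins, which tether synaptic vesicles to one another and to actin, passed as higher, beside 11.6% of all genes tested. Syn1 had 1334, 1391, 1054 and 884.6 normalized counts in control cultures and 1847, 2724 and 1871 in knockout cultures. No knockout fell within the range of the controls (log2 fold change 0.88, SE 0.20, edgeR adjusted p = 0.0190), and the pass was lost without knockout replicate 2 (adjusted p = 0.0624). Syn2 had 1557, 1509, 1060 and 1538 in control cultures and 2436, 2793 and 2377 in knockout cultures. Control replicate 3 was lowest and every knockout above every control (0.84, SE 0.14, edgeR adjusted p = 0.00673), and the pass held with each library left out. Syn3 ranged from 328 to 495.7 in control cultures and from 599.4 to 635.1 in knockout cultures (0.53, edgeR adjusted p = 0.0374). Syn3 no longer passed with the replicate number as a block (adjusted p = 0.0621), nor without control replicate 4 (0.0708) or knockout replicate 1, 2 or 3 (0.0795, 0.111 and 0.0823). Its values are uncertain, since 14.1% of its exon bases lie opposite Timp3, which had 54739 counts against 3634 for Syn3, and the strand setting of the counting is not given in the sources used here.

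Of the Rab3 GTPases, which mark secretory vesicles for docking, Rab3c alone passed, beside 11.6% of all genes tested as higher and 12.2% as lower. It had 756.1, 929.1, 410.3 and 247.1 normalized counts in control cultures and 1493, 2037 and 1704 in knockout cultures. The groups were apart, although the controls differed widely among themselves (log2 fold change 1.58, SE 0.41, edgeR adjusted p = 0.0318). The pass was lost without control replicate 3 (adjusted p = 0.0585) or knockout replicate 1, 2 or 3 (0.0626, 0.104 and 0.0676). Rab3a, the most abundant member of the family at synapses, had 3966, 3890, 3522 and 3935 in control cultures and 3921, 4300 and 3566 in knockout cultures. Its groups overlapped, with knockout replicate 2 above every control (0.038, 95% interval -0.14 to 0.22, edgeR adjusted p = 0.770). Rab3b was at -0.16 (edgeR adjusted p = 0.626), and 9.0% of its exon bases lie opposite another gene.

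Of the 7 active zone and priming proteins, 2 passed as higher, beside 11.6% of all genes tested. Bsn, bassoon, a giant scaffold of the active zone, had 1111, 1279, 676.7 and 568.2 normalized counts in control cultures and 1768, 2413 and 1761 in knockout cultures. Every knockout exceeded every control (log2 fold change 1.13, SE 0.29, edgeR adjusted p = 0.0304). Unc13a, Munc13-1, which primes synaptic vesicles by opening syntaxin 1, had 725.1, 893.9, 561.2 and 421.2 in control cultures and 1175, 1608 and 1161 in knockout cultures. These groups did not overlap either (1.02, SE 0.25, edgeR adjusted p = 0.0270). Without control replicate 3, knockout replicate 1 or knockout replicate 2 neither gene passed, with adjusted p of 0.0542, 0.0594 and 0.110 for Bsn and 0.0527, 0.0522 and 0.0979 for Unc13a, and Bsn was also lost without knockout replicate 3 (0.0526). With the replicate block both passed but were below the limit of a called gene, Bsn at 0.99 (adjusted p = 0.0104) and Unc13a at 0.86 (adjusted p = 0.00493).

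The other active zone genes did not pass in edgeR's test. Rims2, a scaffold that ties vesicles to calcium channels, had 961.3, 973.4, 753.3 and 718.9 normalized counts in control cultures and 1033, 1152 and 1125 in knockout cultures. The groups were apart by a small gap (log2 fold change 0.37, SE 0.13, edgeR adjusted p = 0.0713), and Rims2 passed in limma voom (adjusted p = 0.0479) but not in DESeq2 (0.0671). Pclo, piccolo, the partner scaffold of bassoon, was at 0.37 (edgeR adjusted p = 0.105) and Rims1 at 0.087 (0.749). Unc13b, the more widely expressed priming factor, was at 0.34 with an adjusted p of 0.0510, and passed with the replicate block (0.0381) and in DESeq2 (0.0457) but not in limma voom (0.0534). Unc13c had 5.715 to 21.53 normalized counts in control cultures and 18.05 to 32.75 in knockout cultures (0.87, edgeR adjusted p = 0.223).

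Among fusion regulators and factors that recycle SNAREs, Napb, the brain form of the adaptor that helps NSF to take spent SNARE bundles apart, had 711.6, 752.2, 434.4 and 405.3 normalized counts in control cultures and 1697, 2124 and 1568 in knockout cultures. A wide gap separated the groups (log2 fold change 1.64, SE 0.25, edgeR adjusted p = 0.00471). Nsf itself, the ATPase used by every cell, had 2756, 2796, 2715 and 2602 in control cultures and 2755, 3077 and 2863 in knockout cultures. Its groups overlapped (0.094, 95% interval -0.039 to 0.23, edgeR adjusted p = 0.285). Cplx1, a complexin that clamps and triggers the SNARE bundle, had 236.3, 305.7, 149.7 and 83.31 in control cultures and 512.7, 764.4 and 413.6 in knockout cultures. The knockouts were higher without overlap (1.54, SE 0.42, edgeR adjusted p = 0.0373), but the pass was lost without control replicate 1 (adjusted p = 0.0550), control replicate 3 (0.0699), knockout replicate 1 (0.0770) or knockout replicate 2 (0.130). Cplx2 had 1399, 1891, 1182 and 980.0 in control cultures and 1972, 3101 and 2097 in knockout cultures. The groups were apart by a narrow gap (0.81, SE 0.25, edgeR adjusted p = 0.0511), and Cplx2 passed with the replicate block (adjusted p = 0.00642), in DESeq2 (0.0157) and in limma voom (0.0406). Doc2b, a calcium sensor of spontaneous release, was at 0.49 (edgeR adjusted p = 0.295), with 18.9 to 35.43 normalized counts in control cultures and 31.23 to 54.3 in knockout cultures.

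Of the 8 called genes, Synpr, Snap25 and Napb passed with each library left out in turn, with adjusted p of at most 0.0135, 0.0437 and 0.0223, and the other 5 were each lost without at least 1 library.

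**Figure D3:**
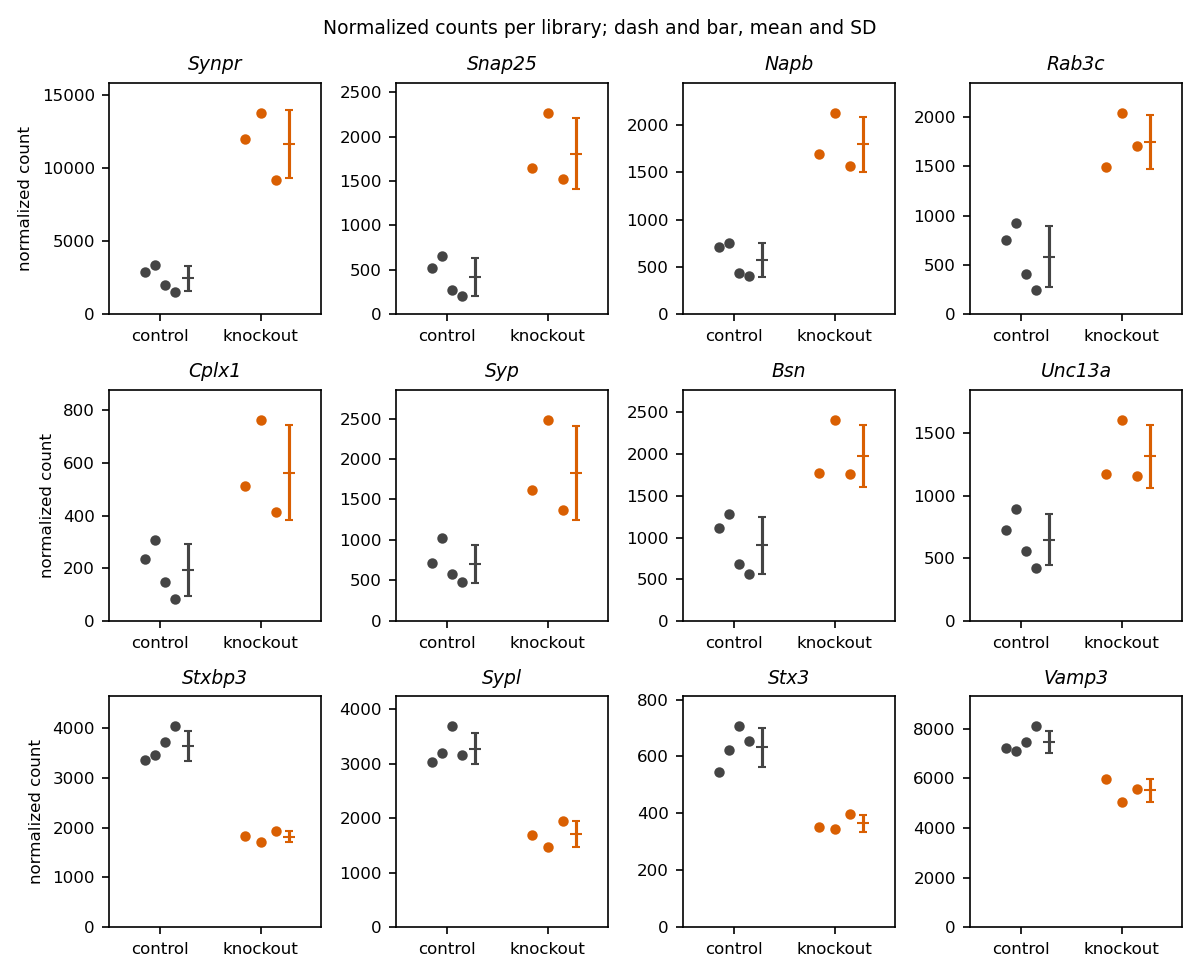
Normalized count in each library for the 8 genes called higher and for Stxbp3, Sypl, Stx3 and Vamp3, each on its own axis from 0, with the mean and SD of the 4 controls and 3 knockouts. The knockouts lie above all controls in the 8 upper panels, by the widest margin in Synpr with 9143 to 13730 against 1527 to 3404, and below all controls in the other 4.

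Ratios of a neuron-typical gene to its widely expressed relative, per kilobase of exon within a library, do not depend on the scaling between libraries. Snap25 to Snap23 was 0.139, 0.179, 0.0610 and 0.0465 in control cultures and 0.522, 0.763 and 0.476 in knockout cultures. Syp to Sypl was 0.341, 0.463, 0.230 and 0.220 in control cultures and 1.38, 2.45 and 1.02 in knockout cultures. Per kilobase, Syp lay below Sypl in every control and above it in every knockout, but without division by exon length the ratio of counts was 0.951, 1.69 and 0.704 in knockout cultures, so that only knockout replicate 2 was above 1. Vamp2 to Vamp3 was 0.707, 0.766, 0.605 and 0.595 in control cultures and 1.03, 1.49 and 1.08 in knockout cultures, on either side of 1. Without division by length control replicate 2 was also above 1, at 1.01. Snap25 to Snap23, below 1 in every library per kilobase, was 1.21 in knockout replicate 2 without it. Stx1a to Stx4a was 0.251, 0.176, 0.113 and 0.170 in control cultures and 0.320, 0.355 and 0.359 in knockout cultures. The mean log2 ratio was higher in knockout cultures by 2.65 for Snap25 to Snap23, 2.33 for Syp to Sypl, 0.83 for Vamp2 to Vamp3 and 1.01 for Stx1a to Stx4a. In all 4 pairs the groups did not overlap, and the two-sided exact permutation test over the libraries gave p = 0.0571 for each pair, also after adjustment over the 4 pairs. The two-sided p was taken as 2 times the smaller one-sided p, and in this form 0.0571 is the smallest value that the 35 splits of 4 and 3 libraries give.

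**Figure D4:**
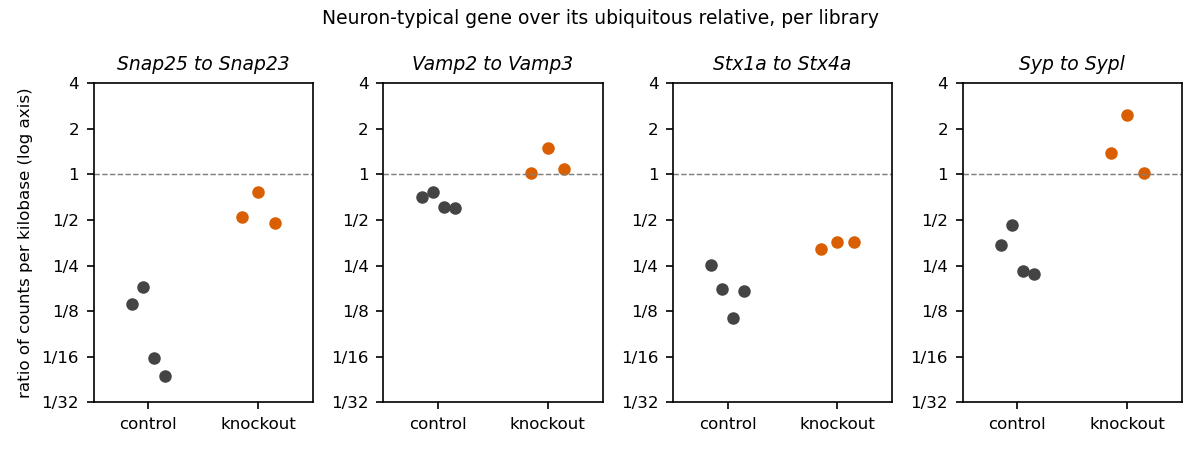
Ratio of counts per kilobase of exon of a neuron-typical gene to its widely expressed relative in each of the 4 control and 3 knockout libraries, on a log axis to base 2. In each of the 4 pairs all knockouts lie above all controls, and Vamp2 to Vamp3 and Syp to Sypl cross 1 on this scale per length, with 0.595 to 0.766 and 0.220 to 0.463 in control cultures.

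Genes of the same pathway that are not among the 43 were counted on 2 lists. Of 36 tested SNARE and fusion genes of other compartments, such as Golgi SNAREs, SNARE-binding proteins and the exocyst, 4 passed as higher, beside 11.6% of all genes, and 8 as lower, beside 12.2%, their median log2 fold change was -0.11, and with the replicate block 1 passed as higher. At an unadjusted p of at most 0.05, 7 were higher and 13 lower, and 0 were called by edgeR, DESeq2 or limma voom. Of 37 tested presynaptic genes, 18 passed as higher, beside 11.6%, and 3 as lower, beside 12.2%, 15 were called higher, beside 3.97%, and the median was 0.595. With the replicate block 1 passed as lower. Among those called higher were Rph3a, the Rab3 effector rabphilin (log2 fold change 2.31, edgeR adjusted p = 0.0256), Ppfia2, a liprin of the active zone (2.07, 0.00624), Slc32a1, the vesicular GABA transporter (2.04, 0.0413), Syt1, the calcium sensor of release (1.70, 0.0449), and Doc2a (1.44, 0.0476). Of the 43 genes, Sv2b and Stx4a lie on chromosome 7 with Klf13, at distances of 11.2 and 63.9 Mb.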

How the data were processed

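Gene expression was measured by RNA-seq in 7 libraries of primary mouse oligodendroglia. According to the submitters' notes, the authors trimmed reads with Trimmomatic 0.36, mapped them to GRCm38 with STAR 2.5.2b and counted them per gene with featureCounts of Subread 1.5.2. The deposited values are raw counts per gene. Annotation release and strand setting are not given in the sources used here. Of the 49315 identifiers, 48970 were given symbols by a table of names and 44858 had the same start and end in GENCODE M21, through which Vamp7 was named. No 2 libraries held identical values.

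The analysis used edgeR 4.0.16 in R 4.3.3 (TMM factors, filterByExpr, robust quasi-likelihood test with the group as the only term) and adjusted by the Benjamini-Hochberg method over 18352 genes. Exact permutation tests used scipy 1.17.1. Alternatives included DESeq2 1.42.0, limma 3.58.1 and a replicate block. Deviations from the group means in same-numbered control and knockout libraries correlated at 0.113, 0.463 and 0.168, and those with different numbers at -0.529 to 0.197. The value of 0.197 lay above 0.113 and 0.168, so that these correlations do not establish that the numbers pair the libraries. The replicate block treats same-numbered libraries as pairs and was used only as an alternative. Control replicate 4 has no partner. Gm42418, Gm23935 and Lars2, which collect ribosomal RNA reads, held 14.1%, 6.03%, 6.50% and 15.0% of counts in control replicates 1 to 4. In knockout replicates 1 to 3 they held 17.0%, 7.56% and 18.0%. Control replicates 2 and 3 and knockout replicate 2 were thus low, and Stx4a was higher in these libraries than in the others. Library sizes without ribosomal RNA genes were an alternative, and the part of this split in the results was otherwise not tested. A count of 0 allows up to 3 counts, 5.03e-06 to 1.22e-05 percent of a library, for counting error only.

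The members, their classes and all lists were chosen with earlier results of these data known. Values in every library are given for called genes, for the 2 genes of each role with the highest level and for the pairs. Other pathway genes are named only if called, up to 6 in a direction. The values of some genes are not reported here.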

Additional observations from a re-analysis of the deposited data

Results flagged for a closer look

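Among the 47 sets of 4 control values tested with Dixon's criterion, 3 had 1 library apart from the others, where chance gives about 1 in 20. All 3 were in control replicate 3. Vamp8 had 811.5 normalized counts there, above the other controls by 0.88 of the range, Syn2 had 1060, below them by 0.905, and Rab3a had 3522, below them by 0.831. The microglia markers also had their highest summed level in this library, at 1078 CPM per kilobase of exon, against 233.8 to 266.1 in the other controls and 243.9 to 483.8 in the knockouts, and their part in these values was not tested. Syn2 passed as higher in the knockout with and without control replicate 3, whereas the log2 fold change of Vamp8 moved from -0.18 to 0.38 without it.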

How the results depend on the processing

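Of the 21 genes among the 43 that passed, none changed direction under any alternative, and 9 passed under every alternative except the test against a log2 fold change of 1. Over the 42 tested genes, 586 of 671 values kept direction and side of the threshold, 56 lost the pass, 14 gained it and 15 changed sign. The median log2 fold change of all genes moved to at most 0.0664. The causes of the changes below were not tested.

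Against a log2 fold change of 1, only 1 neuron-typical gene passed as higher (1 called) and 0 as lower, and 0 ubiquitous SNAREs, 0 of the 43 as lower, 0 other SNARE and fusion genes in either direction, and 1 higher and 0 lower other presynaptic genes passed, with 33 higher and 153 lower among all genes. Without a filter on low counts, 8 neuron-typical genes passed as higher and 3 were called, 0 other SNARE and fusion genes passed as higher and 1 other presynaptic gene as lower. That last count was also 1 with upper quartile factors, at least 10 counts in every library, or the replicate block. The other SNARE and fusion genes that passed as higher were 2 with DESeq2 or with library sizes without ribosomal RNA genes and 1 with the block, and their median was -0.0695 with upper quartile factors. Stxbp3 was called lower, as 1 member, with DESeq2, RLE size factors, no filter, or library sizes without ribosomal RNA genes.

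With each library left out, neuron-typical genes passing as higher ranged from 4 to 14, as lower from 0 to 2 and called higher from 3 to 9. Members called lower ranged from 0 to 2, ubiquitous SNAREs passing as lower from 3 to 5 with a median of -0.25 to -0.12, other SNARE and fusion genes from 0 to 4 higher and 3 to 8 lower, and other presynaptic genes from 9 to 17 higher and 1 lower each time. All genes ranged from 850 to 1843 passing as higher, 1254 to 2032 as lower and 335 to 810 called higher. The lowest counts of neuron-typical genes passing as higher and called higher came without knockout replicate 2.

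Signs changed only in genes that did not pass. Vamp8 ranged from -0.47 to 0.38, Stxbp5 from -0.031 to 0.092, Stxbp6 from -0.16 to 0.12, Rab3a from -0.032 to 0.11 and Rims1 from -0.046 to 0.22 with each library left out. Stxbp5 was at -0.0062 with the replicate block and -0.011 without ribosomal RNA genes, and Stxbp6 at 0.0081 with upper quartile factors and 0.028 with limma voom. The block lost the pass of Syn3, gained those of Cplx2 and Unc13b, and changed no other pass of the 43 genes. In the 4 pairs the block left differences of 2.32 for Snap25 to Snap23, 0.777 for Vamp2 to Vamp3, 1.01 for Stx1a to Stx4a and 2.19 for Syp to Sypl (exact sign-flip p = 0.25, the smallest that 3 pairs allow). With Vamp2 outside the neuron-typical class, 12 genes passed as higher. Without division by exon length the differences in the 4 pairs were the same, but the ratios above 1 changed, for Syp to Sypl from 3 to 1 of the knockouts, for Snap25 to Snap23 from 0 to 1, and for Vamp2 to Vamp3 from 0 to 1 of the controls. Sv2b, removed by the filter on low counts, did not pass without that filter (adjusted p = 0.200) or in DESeq2 (0.178).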
